A study of Mus musculus with 6 samples.

Results

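The oligoadenylate synthetase (OAS) family was followed in DP42 murine myeloma cells on 6 arrays. The 6 members, Oas1a, Oas1b, Oas2, Oas3, Oasl1 and Oasl2, were chosen by gene symbol with earlier results of these data in view, and each gene was to be read from its brightest probe set naming 1 gene, selected on the mean over the 6 arrays. Of these 6 genes 5 were measured, each by 1 probe set, out of 22180 genes measured in all. Oas1a shares its probe set with Oas1g in the platform annotation and is given no value here. Because the family was proposed with these results known, the adjusted p-values below describe where its genes fell in the fit over all genes and are not independent evidence.

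OAS proteins bind double-stranded RNA and join ATP into short oligoadenylates, a messenger of the antiviral response that leads to cleavage of RNA and slower translation. The genes are classical targets of type I interferon, whose receptor activates the transcription factor complex ISGF3, to which Stat2 and Irf9 belong. The OAS-like proteins Oasl1 and Oasl2 carry ubiquitin-like domains and differ in activity: mouse Oasl1 makes no oligoadenylate and restrains Irf7 translation, and mouse Oasl2 makes oligoadenylate.

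Each group held 2 arrays of total RNA after 24 h: DP42 cells cultured alone, DP42 cells cultured with mouse B cells (the control, per the design text), and DP42 cells cultured with mouse neutrophils, which the labels write as "neutrophils (IMC)". Co-cultured populations were parted by flow sorting before RNA was taken. For the co-cultures, title and source name give the partner cell and the remaining fields DP42, so these arrays were read as DP42 cells. The series title speaks of bone marrow neutrophils, which other labels call IMCs or myeloid cells, and the number of animals is not given. Separate cultures are not stated for the arrays of any group, and all p-values here therefore describe array-to-array spread that may be technical.

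The cell type was read from markers. Values are log2 expression levels of a probe set, the group of probes that reads 1 gene, and a gene is called where its adjusted p (limma, Benjamini-Hochberg over all genes) is under 0.05. Of 8 measured plasma cell markers the brightest, Mzb1, stood at 12.10 and 12.16 in cells cultured alone, 12.19 and 12.10 with B cells, against 12.16 and 12.14 with neutrophils. The plasma cell genes Jchain and Tnfrsf17 were dim, with Jchain below the lower quartile of all 6 arrays. The brightest B-lineage marker, Cd79b, stood at 12.48 and 12.52 in cells cultured alone, to which no B cell was added. In the neutrophil co-culture 5 of 17 measured neutrophil markers were called higher than in culture alone, beside 0.131% of all genes. They were Ngp, Retnlg, Lcn2, S100a8 and Elane. Against B cells 1 of the 17 was called, Ngp, beside 0.0316% of all genes, and 7 were higher at an unadjusted p under 0.05, beside 8.1%. Between B cells and culture alone 0 were called. At an unadjusted p under 0.05 in limma Ngp, Elane and Mmp9 were higher with B cells and Ly6g lower, beside 358 and 511 of all genes. The array means of the 17 were 6.77 and 6.84 alone, 6.80 and 6.90 with B cells, against 7.22 and 7.26 with neutrophils. Of the 17, 5 lay below the lower quartile on each alone and B-cell array, and 2 and 1 on the neutrophil arrays. Of 9 monocyte and macrophage markers 1 was called, Ly6c2, at 7.14 and 7.12 against 5.71 and 5.75 alone (adjusted p = 0.00226). With neutrophils 3 of the 9 stood above culture alone, and their median difference was -0.02, against 0.02 over all genes. At an unadjusted p under 0.05 in limma 2 of the 9 were higher and 1 lower, beside 1324 and 2599 of all 22180 genes. None of 8 plasma cell, 9 B-cell, 9 plasmacytoid dendritic, 7 dendritic and 9 T and natural killer cell markers was called in limma. At an unadjusted p under 0.05 against culture alone 1, 0, 2, 0 and 1 of them were higher, beside 1324 of all 22180 genes. In the same order 0, 1, 0, 2 and 1 were lower, beside 2599 genes. The other brightest markers of their lists were Itgam for neutrophils, Cd68 for macrophages, Cox6a2 for plasmacytoid dendritic cells, Ccr7 for dendritic cells and Cd3g for T cells, and none of these was called in any comparison. The called neutrophil markers and Ly6c2, the 1 called marker of the monocyte and macrophage list, move with the OAS results below. Their part in those results was not tested. The B-cell arrays stood apart from each other: over all genes replicate 1 correlated at 0.9963 and 0.9947 with the neutrophil arrays and at 0.9924 with replicate 2, which correlated at 0.9947 and 0.9946 with the alone arrays. In such bulk RNA, fewer cells of a type and less RNA per cell cannot be told apart.

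In cells cultured with neutrophils, Oas2, Oasl2, Oasl1 and Oas1b were higher than in cells cultured alone, and Oas3 was not called. Oas2 showed the largest difference of the family, 1.25 ± 0.12 on the log2 scale (SE), or 2.38-fold, and the other called genes lay between 1.44-fold and 1.59-fold. Cells cultured with B cells showed no called member against culture alone. The plot of the members by array shows these levels.

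**Figure D1:**
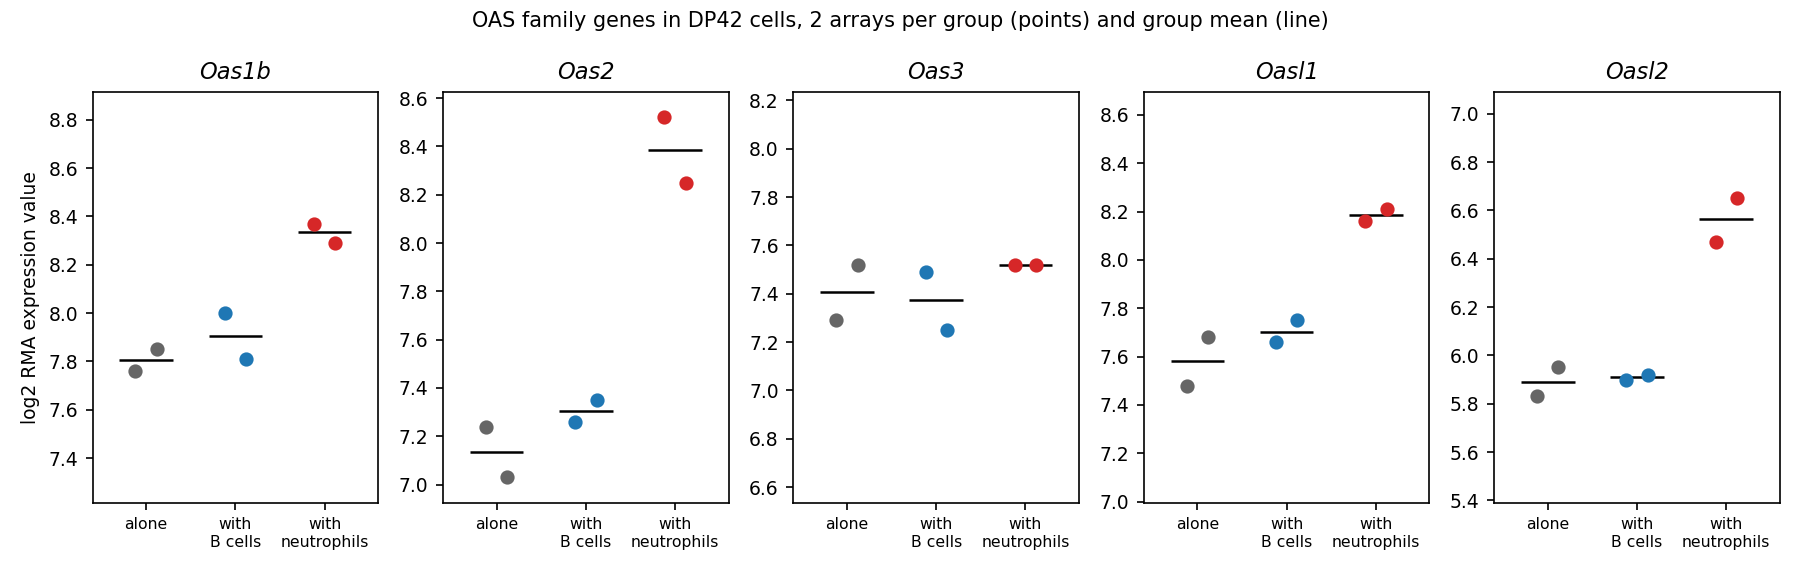
Log2 expression values of the 5 measured OAS family genes on each of the 6 arrays, by culture group, with 2 points per group and a line at the group mean; each panel has its own axis over the same span. Both neutrophil arrays lie above the other 4 for Oas1b, Oas2, Oasl1 and Oasl2, while for Oas3 they overlap with the alone arrays and lie just above the B-cell arrays.

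Oas2, a synthetase with repeated catalytic units (probe set 17452054), stood at 7.24 and 7.03 in cells cultured alone, at 7.26 and 7.35 with B cells, and at 8.52 and 8.25 with neutrophils. Both neutrophil arrays were well above the other 4, and the B-cell arrays lay just above the alone arrays. The group means were 7.13 ± 0.14, 7.30 ± 0.06 and 8.38 ± 0.19 (SD, n = 2). Against culture alone the difference had a 95% interval of 0.97 to 1.53 and an adjusted p of 0.00862 (limma, Benjamini-Hochberg over 22180 genes). Ordered from the highest signed difference downward, it ranked 3 among all genes, after the neutrophil marker Ngp (1.82) and the monocyte marker Ly6c2 (1.40). The other called neutrophil markers, Retnlg, Lcn2, S100a8 and Elane, ranked 5, 20, 33 and 51. Against B cells the Oas2 difference was 1.08 ± 0.12, or 2.11-fold (adjusted p = 0.0336), ranked 6 in the same order. There Ly6c2 (1.51), Ngp (1.46) and Retnlg (1.27) ranked 1, 2 and 4, and S100a8, Lcn2 and Elane 20, 63 and 1548. The step from alone to B cells was 0.17 ± 0.12 (adjusted p = 1), with an interval of -0.11 to 0.45.

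Oasl2, the OAS-like gene whose product makes oligoadenylate (17441037), was the member below the median of all 6 arrays. It stood at 5.83 and 5.95 alone, 5.90 and 5.92 with B cells, against 6.47 and 6.65 with neutrophils. The alone and B-cell arrays lay together, all 4 below the lower quartile of their own array, and the neutrophil arrays lay above them. Signal was not shown to exceed background at that level, and RMA, the summary method behind the values, compresses differences there, so the fold is not exact. The difference against culture alone was 0.67 ± 0.10, or 1.59-fold (adjusted p = 0.0281). Against B cells it was 0.65 ± 0.10 and did not pass (adjusted p = 0.110), and between B cells and alone it was 0.02 ± 0.10.

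Oasl1, the inhibitor of Irf7 translation (17441051), stood at 7.48 and 7.68 alone, 7.66 and 7.75 with B cells, against 8.16 and 8.21 with neutrophils. The neutrophil arrays again lay above the rest, and the alone and B-cell arrays overlapped. It rose 1.52-fold against culture alone (0.61 ± 0.10, adjusted p = 0.0348), and stood 0.48 ± 0.10 above B cells without passing (adjusted p = 0.132). Irf7 itself stood at 6.63 and 6.81 alone, 6.71 and 6.78 with B cells, against 6.92 and 6.84 with neutrophils, and its difference of 0.16 ± 0.10 against alone did not pass (adjusted p = 0.416).

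Oas1b (17441759), the mouse gene of flavivirus resistance, whose product is truncated in most laboratory strains, stood at 7.76 and 7.85 alone, 8.0 and 7.81 with B cells, against 8.37 and 8.29 with neutrophils. RefSeq lists it in the C57BL/6J assembly GRCm38.p6 as a transcribed pseudogene. The neutrophil arrays lay above the other 4, among which alone and B-cell values overlapped. It rose 1.44-fold against culture alone (0.53 ± 0.10), with an adjusted p of 0.0485 that lay just under the threshold. The difference against B cells was 0.43 ± 0.10 (adjusted p = 0.144).

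Oas3 (17452070), the longest family member, stood at 7.29 and 7.52 alone, 7.49 and 7.25 with B cells, against 7.52 and 7.52 with neutrophils. The neutrophil arrays equalled the higher alone array to 2 decimals and overlapped with culture alone, and both lay just above the B-cell arrays. The difference was 0.11 ± 0.12 against alone (adjusted p = 0.612), with an interval of -0.16 to 0.38, and 0.15 ± 0.12 against B cells (adjusted p = 0.448). That interval against alone lies below the interval for Oas2 and overlaps that for Oas1b, 0.30 to 0.77. Whether the genes' differences themselves differ was not tested. Oas3 also turned negative, to -0.25 against alone and -0.13 against B cells, when the mean of 1394 odorant and pheromone receptor genes on each array entered the fit.

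Counted together, 4 of the 5 measured members were called higher and 0 lower in neutrophil co-culture against culture alone, where 0.131% of all genes were called higher and 1.36% lower. Over all genes those were 29 higher and 302 lower, and the counts were 11 and 59 with quantile normalisation and 79 and 502 with arrays centred on their medians. The median difference of the 5 was 0.61, against 0.02 over all genes and 0.11 over genes at or above median brightness, where 4 of the 5 lay. The arrays did not overlap for 4 of 5 members, against 35.6% of all genes with both neutrophil arrays higher. Against B cells 1 of 5 was called higher and 0 lower, beside 0.0316% and 0.018% of all genes, and at an unadjusted p under 0.05 4 of 5 were higher, beside 8.1%. The median there was 0.48, against 0.01 over all genes and 0.13 over genes at or above median brightness. All 5 had non-overlapping arrays, beside 30% of genes. Over all genes that comparison had 7 higher and 4 lower, and with arrays centred on their medians 45 and 90. Both comparisons share the neutrophil arrays. Between B cells and culture alone limma called 0 members (0 at an unadjusted p under 0.05), and 0% of all genes higher or lower, with 358 higher and 511 lower at an unadjusted p under 0.05. There 1 of 5 members, Oas2, had non-overlapping arrays, beside 13.5% of genes. The count of 4 against culture alone became 0 without alone replicate 1 or alone replicate 2, and 1 without neutrophil replicate 1 or neutrophil replicate 2, with 4 of 5 higher at an unadjusted p under 0.05 each time, as with all arrays, where 5.97% of all genes were. The count of 1 against B cells became 4 without B-cell replicate 1 and 0 without any other single array, again with 4 at an unadjusted p under 0.05. Without B-cell replicate 1 the differences against B cells were 1.04 for Oas2, 0.64 for Oasl2, 0.52 for Oas1b, 0.44 for Oasl1 and 0.26 for Oas3. Without B-cell replicate 2 they were 1.12, 0.67, 0.34, 0.53 and 0.03 in the same order. The count against culture alone was 0, with 3 at an unadjusted p under 0.05, once that receptor mean entered the fit, where Oas2 stood 1.49 higher, Oasl1 0.66, Oasl2 0.62 and Oas1b 0.30. The receptor mean was 5.56 and 5.51 alone, 5.27 and 5.59 with B cells, against 5.13 and 5.05 with neutrophils.

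**Figure D2:**
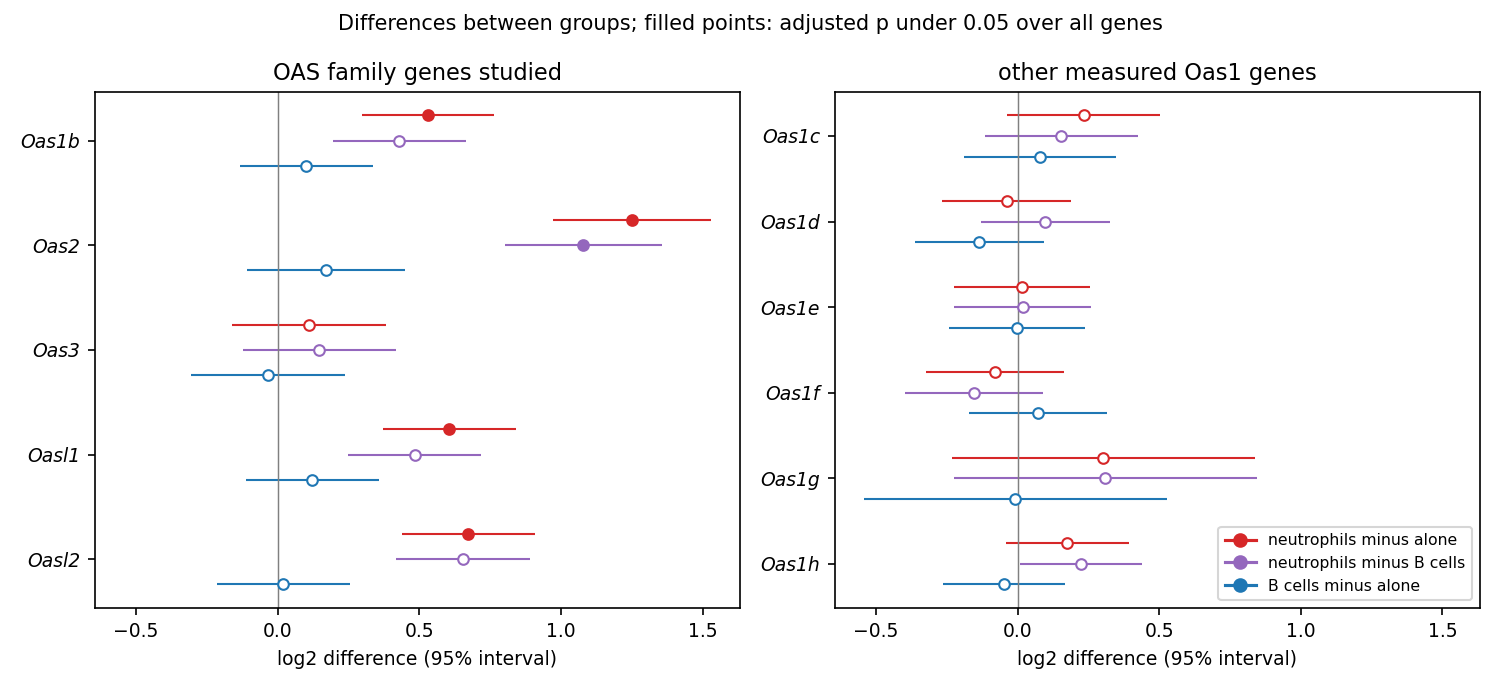
Log2 differences with unadjusted 95% intervals for the 5 measured OAS family genes (left) and 6 further Oas1 genes (right) in 3 comparisons; filled points have an adjusted p under 0.05 over all genes. Filled points stand at 4 members against culture alone and at Oas2 against B cells, and no further Oas1 gene has one.

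The other Oas1 genes of the mouse cluster gave signals in the lower part of each array. All 6 of them, Oas1c, Oas1d, Oas1e, Oas1f, Oas1g and Oas1h, lay below the median of every array, and Oas1d, Oas1g and Oas1h below the lower quartile of every array. None was called in limma in any of the 3 comparisons. At an unadjusted p under 0.05 there was 1, Oas1h, higher with neutrophils than with B cells, beside 8.1% of all genes. Oas1c, which lacks synthetase activity, stood at 6.48 and 6.49 alone, 6.58 and 6.54 with B cells, against 6.56 and 6.88 with neutrophils. The difference against alone was 0.23 ± 0.12 (adjusted p = 0.337). Oas1d, known from oocytes, stood at 4.82 and 4.93 alone, 4.66 and 4.81 with B cells, against 4.86 and 4.81 with neutrophils. Oas1h stood at 4.89 and 4.97 alone, 4.82 and 4.93 with B cells, against 5.10 and 5.11 with neutrophils, a difference of 0.18 ± 0.09 against alone (adjusted p = 0.359). Oas1e and Oas1f stayed between 6.13 and 6.39 on all arrays, with differences against alone of 0.02 ± 0.11 and -0.08 ± 0.11. Oas1g, which makes oligoadenylate like Oas1a, ranged from 3.89 to 4.59, and its arrays within culture alone spread over that whole range, at 3.89 and 4.59. The genes are near-identical copies in places, so probes of one may bind RNA of another, and a dim value here does not show that a gene is silent.

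By RefSeq's order on chromosome 5, Oas2 and Oas3 lie side by side and are followed by Oas1e, Oas1c, Oas1b, Oas1f, Oas1h, Oas1g and Oas1a, while Oasl2 and Oasl1 lie apart from them with 1 gene between. Called and uncalled genes were interspersed along the cluster: Oas2 was called, its neighbours Oas3, Oas1e and Oas1c were not, Oas1b was, and Oas1f, Oas1h and Oas1g were not. Across the 6 arrays, which share the groups, Oas2, Oasl1, Oasl2 and Oas1b correlated with each other at r from 0.926 to 0.974, while Oas3 correlated with them at 0.421 to 0.681 and with Oas1g at 0.982. The last pair was high on alone replicate 2, B-cell replicate 1 and both neutrophil arrays.

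Promoters of the members are shown because some of these genes moved together, and because OAS genes are known to be driven through the interferon-stimulated response element. The sequences are RefSeq's, from GRCm38.p6, which is not known to be the build of the array annotation, and run from 250 bases before to 50 after the gene's start. Of the 6 members 4 had an entry, and Oas1b and Oas2 had none. The core searched was GAAANNGAAA on both strands, and capitals mark it.
Oas3 (chr5:120777610-120777909, minus strand): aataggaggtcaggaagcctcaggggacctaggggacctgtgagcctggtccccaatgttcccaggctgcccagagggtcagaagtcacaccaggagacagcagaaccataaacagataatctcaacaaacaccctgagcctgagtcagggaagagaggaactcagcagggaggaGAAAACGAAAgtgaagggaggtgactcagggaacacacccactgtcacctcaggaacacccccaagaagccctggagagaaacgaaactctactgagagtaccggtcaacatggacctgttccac
Oas1a (chr5:120907476-120907775, minus strand): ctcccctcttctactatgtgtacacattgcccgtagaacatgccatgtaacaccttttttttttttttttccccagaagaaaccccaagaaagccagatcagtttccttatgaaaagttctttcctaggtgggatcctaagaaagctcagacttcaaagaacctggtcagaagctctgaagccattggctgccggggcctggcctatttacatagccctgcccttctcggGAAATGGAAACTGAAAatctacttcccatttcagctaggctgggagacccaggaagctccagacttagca
Oasl1 (chr5:114922990-114923289, plus strand): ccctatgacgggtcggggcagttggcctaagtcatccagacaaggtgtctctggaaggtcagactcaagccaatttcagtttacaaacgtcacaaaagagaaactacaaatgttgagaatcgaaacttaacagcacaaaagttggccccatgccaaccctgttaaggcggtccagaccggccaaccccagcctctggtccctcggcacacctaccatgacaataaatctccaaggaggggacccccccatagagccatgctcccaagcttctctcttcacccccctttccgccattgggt
Oasl2 (chr5:114896684-114896983, plus strand): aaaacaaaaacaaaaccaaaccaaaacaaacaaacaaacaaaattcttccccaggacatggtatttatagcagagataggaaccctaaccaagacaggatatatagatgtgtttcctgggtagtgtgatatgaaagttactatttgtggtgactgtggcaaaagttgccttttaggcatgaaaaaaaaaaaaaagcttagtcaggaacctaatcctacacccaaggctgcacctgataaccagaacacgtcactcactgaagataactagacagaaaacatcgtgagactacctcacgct

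The Oas3 window held 1 match, GAAAACGAAA, whose first base lies 75 bases before the start, and Oas3 was the measured member that was not called. The Oas1a window held 2 overlapping matches, GAAATGGAAA and GAAACTGAAA, 20 and 14 bases before the start. The Oas1g window held the same pair, and the Oas1c window 2 matches on the opposite strand. The windows of Oasl1 and Oasl2, both called against culture alone, held 0 matches, as did those of Oas1f and Oas1h. Of 32851 RefSeq promoters 3.44% held a match. A match is a description of these letters and shows no binding, and a window without one says only that the letters are not in it.

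The other genes of the oligoadenylate pathway were not called. Of 4 measured regulators limma called 0 in any comparison, with 0 at an unadjusted p under 0.05 against culture alone. Against B cells 2 were higher at an unadjusted p under 0.05, Pde12 and Cnp, beside 8.1% of all genes. Calls appeared there without B-cell replicate 1, a fit that leaves 1 array in that group. Abce1, a ribosome recycling factor, stood at 12.14 and 12.19 alone, 12.26 and 12.11 with B cells, against 12.31 and 12.31 with neutrophils, a difference of 0.14 ± 0.10 against alone (adjusted p = 0.452). Pde12, a phosphodiesterase that degrades oligoadenylate, stood at 9.08 and 9.08 alone, 8.94 and 8.79 with B cells, against 9.17 and 9.21 with neutrophils. The B-cell arrays were the low ones, and the difference of neutrophils against B cells was 0.33 ± 0.10 (adjusted p = 0.174). Akap7, which has a domain of the same activity, differed from alone by 0.03 ± 0.09, and the related myelin enzyme Cnp by 0.13 ± 0.09. Over genes at or above median brightness, which include these 4, the median difference was 0.11 against alone and 0.13 against B cells.

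**Figure D3:**
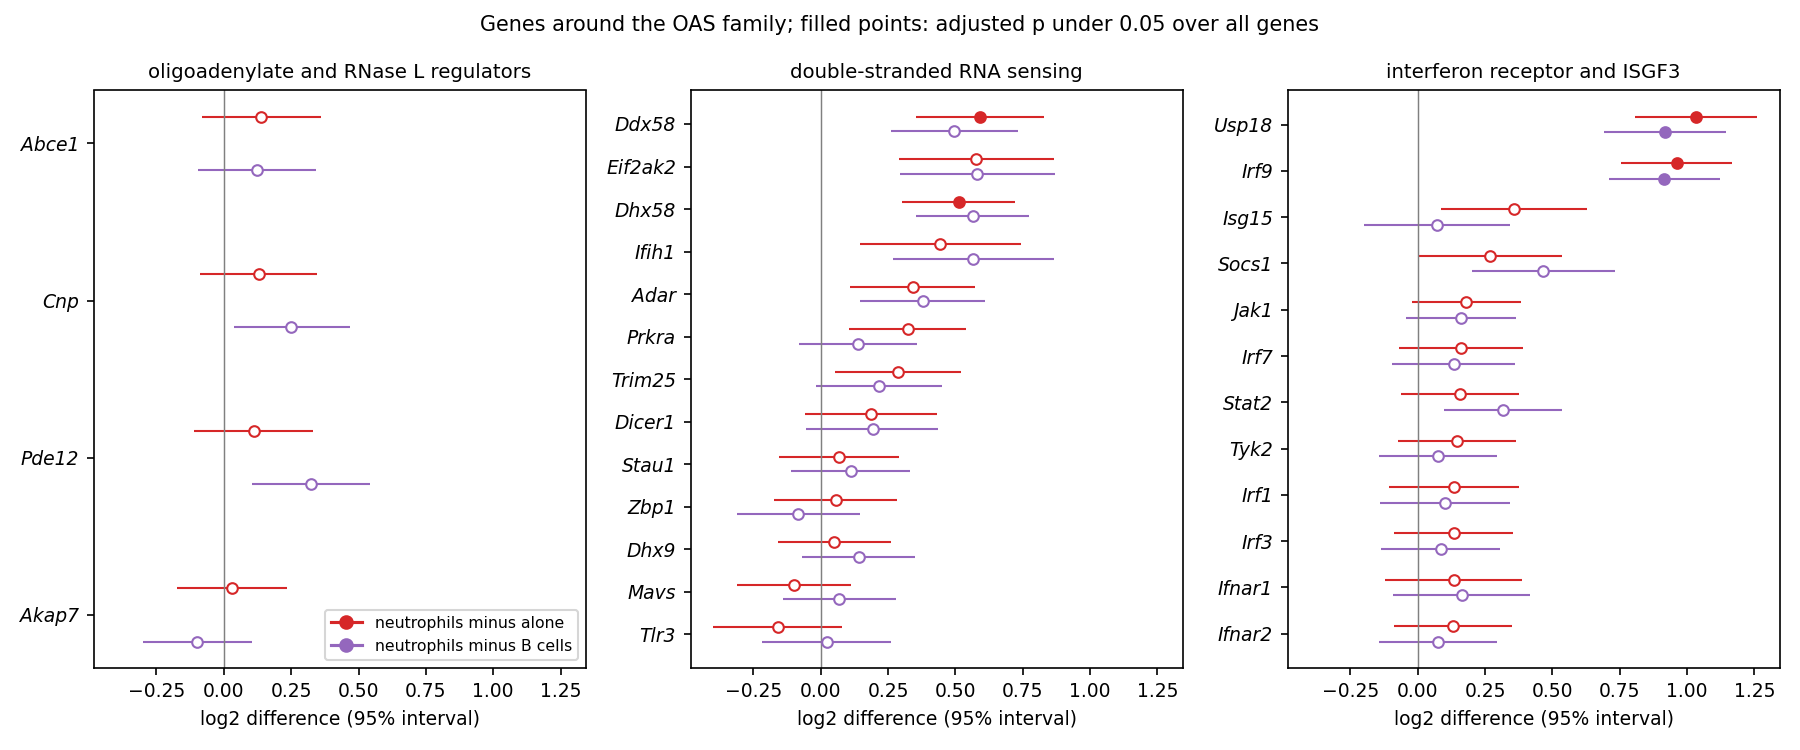
Log2 differences with unadjusted 95% intervals for measured genes of the oligoadenylate pathway (left), double-stranded RNA sensing (middle) and interferon receptor signalling (right), for neutrophil co-culture minus culture alone and minus B-cell co-culture; filled points have an adjusted p under 0.05 over all genes. Usp18 and Irf9 have filled points in both comparisons, and Ddx58 and Dhx58 against culture alone.

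Among 13 measured genes of double-stranded RNA sensing, 2 were called higher and 0 lower against culture alone, beside 0.131% of all genes called higher. Their median difference was 0.29, against 0.02 over all genes and 0.11 over genes at or above median brightness, where 10 of the 13 lay. Against B cells 0 were called in limma, and 5 were higher at an unadjusted p under 0.05, beside 8.1% of all genes. Ddx58, the sensor RIG-I, stood at 7.87 and 8.0 alone, 8.11 and 7.95 with B cells, against 8.57 and 8.49 with neutrophils (0.59 ± 0.10, adjusted p = 0.0381). Dhx58, the related helicase LGP2, rose by 0.51 ± 0.09 (adjusted p = 0.0404). Eif2ak2, the kinase PKR that shares its double-stranded RNA ligand with OAS proteins, stood 0.58 ± 0.13 higher against alone (adjusted p = 0.068) and Ifih1, the sensor MDA5, 0.44 ± 0.13 (adjusted p = 0.150). Neither passed. The adaptor Mavs and the endosomal receptor Tlr3 stood at -0.10 and -0.16 against alone, and the other 11 of the 13 stood above it. At an unadjusted p under 0.05 in limma 7 of the 13 were higher against alone and 0 lower, beside 5.97% of all genes higher. The 2 calls became 0 without alone replicate 1, alone replicate 2, neutrophil replicate 1 or neutrophil replicate 2, and 4 without B-cell replicate 1 or B-cell replicate 2. Each of these fits leaves 1 array in a group, and unadjusted results were not counted by direction there. The 0 calls against B cells became 6 without B-cell replicate 1.

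Of 12 measured genes of the interferon receptor and ISGF3, 2 were called higher and 0 lower in each comparison with neutrophils. Of all genes 0.131% were called higher against alone and 0.0316% against B cells. Irf9, the DNA-binding subunit of ISGF3, stood at 8.19 and 8.15 alone, 8.19 and 8.25 with B cells, against 9.15 and 9.12 with neutrophils (0.96 ± 0.09 against alone, adjusted p = 0.00801). Usp18, which removes ISG15 from proteins and restrains the interferon receptor, stood at 7.33 and 7.47, 7.58 and 7.45, and 8.42 and 8.45 (1.03 ± 0.10, adjusted p = 0.00862). Stat2, the partner of Irf9 in that complex, differed from alone by 0.16 ± 0.10 (adjusted p = 0.405), and the receptor chains Ifnar1 and Ifnar2 by 0.13 ± 0.11 and 0.13 ± 0.10. The median difference from alone over genes at or above median brightness was 0.11. Isg15, a ubiquitin-like modifier, stood at 6.15 and 6.36 alone, 6.56 and 6.53 with B cells, against 6.49 and 6.74 with neutrophils. Against alone it differed by 0.36 ± 0.12 without overlap and did not pass (adjusted p = 0.185), and against B cells, where the arrays overlapped, by 0.07 ± 0.12. Socs1, an inhibitor of JAK kinases, stood 0.27 ± 0.12 above alone (adjusted p = 0.278) and 0.47 ± 0.12 above B cells (adjusted p = 0.147). The 2 calls against alone were lost without alone replicate 1, alone replicate 2 or neutrophil replicate 2. Those against B cells grew in number without B-cell replicate 1 and were lost without each other array.

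The genes whose pattern over the 6 arrays was most like that of the members were sought among 1069 genes at or above median brightness that ranged by at least 0.5. The called markers Ngp, Retnlg, Lcn2, S100a8 and Ly6c2 lay below that median and could not appear, whatever their pattern, while Elane lay above it. The member Oasl2 lay below it too. The mean of the 5 members was matched most closely by Usp18 (Pearson r = 0.998), Cmpk2 (0.996), Irf9 (0.988), Ddx58 (0.987) and Chka (0.98). For Oas2 alone the closest were Irf9 and Cmpk2 (both 0.986), then Xaf1 (0.976), Dhx58 (0.968) and Parp14 (0.968). Ddx58 matched Oas1b at 0.998, followed by Chka (0.983), Usp18 and Rcn1 (both 0.98), then Parp14. Usp18 came first for Oasl1 (0.972) and Oasl2 (0.981). After it came Cmpk2, Chka, Irf9 and Ddx58 for Oasl1. For Oasl2 the others of the 5 were Rnf7 (0.974), Irf9 and Ifi27 (both 0.973) and Adar (0.971). The 5 for Oas3 were Zbtb2 (0.993), Dnajb1 (0.96), Zfp719 (0.96), Galnt10 (0.954) and Mir3081 (0.95), none of which was among the 5 of another member or called against culture alone. These correlations rest on 3 groups of 2 arrays and describe likeness only.

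**Figure D4:**
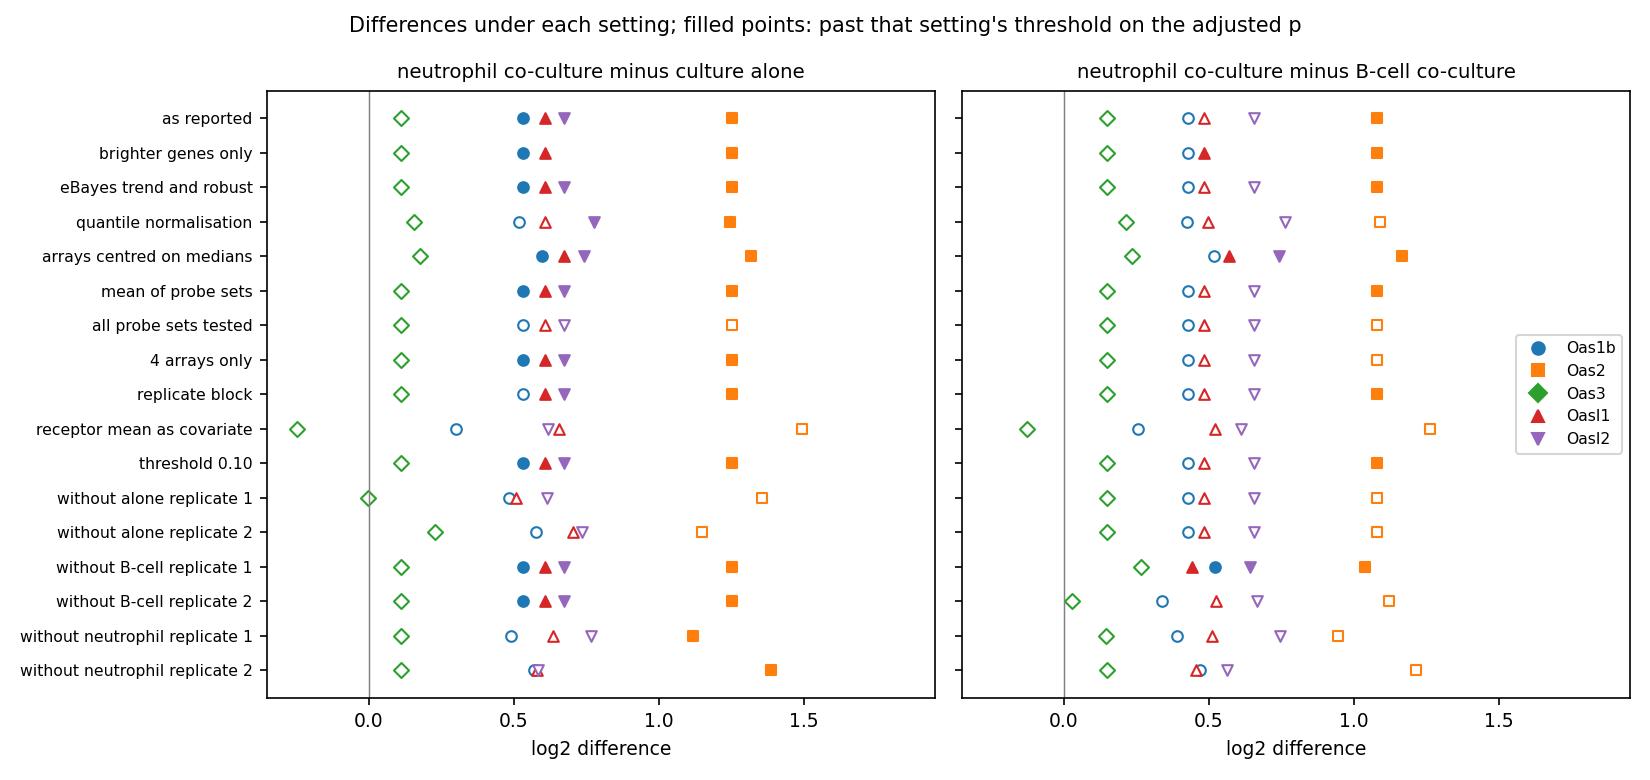
Log2 difference of each measured OAS family gene under each analysis setting, for neutrophil co-culture minus culture alone (left) and minus B-cell co-culture (right); filled points passed that setting's threshold on the adjusted p. Points of Oas1b, Oas2, Oasl1 and Oasl2 lie above 0 in every setting where they could be computed, Oas3 crosses 0, and which points are filled changes with the setting.

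Over 16 alternatives, described at the end, the difference of Oas2 against alone lay between 1.12 and 1.49 and passed in 12. Oasl2 lay between 0.58 and 0.78 over the 15 alternatives that kept it and passed in 9. Oasl1 lay between 0.51 and 0.70 and passed in 9, and Oas1b between 0.30 and 0.60 and passed in 8. Against B cells Oas2 lay between 0.94 and 1.26 and passed in 7. Several alternatives repeat one another, so these tallies do not count separate tests. The threshold of 0.10 refits nothing, and the tallies read it at 0.05. Each member has 1 probe set, so the mean of probe sets leaves its difference unchanged. Against alone, using only the 4 arrays compared and leaving out either B-cell replicate gave the same result for each member.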

How the data were processed

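Values deposited by the authors are on a log2 scale, 1 per probe set and array, and the submitters' processing notes name RMA; software version, array model and annotation build are not given in the sources used here. The log2 scale was read from the values, which ran from 3.04 to 14.03 with array medians of 7.09 to 7.22. RMA subtracts background, equalises arrays and summarises probes, so a shift shared by most genes would be hidden and dim differences are compressed. Precision is limited by having 2 arrays per group.

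Of 41345 probe sets, 23521 named 1 gene, 1814 several and 16010 none. The brightest probe set naming 1 gene was kept for each of 22180 genes. Group means were fitted to all 6 arrays with limma 3.58.1 in R 4.3.3 (lmFit, eBayes, two-sided; 3 residual degrees of freedom, prior 5.55), with Benjamini-Hochberg adjustment over all genes. A gene is called, and is said to rise, at an adjusted p under 0.05. Intervals are at 95%, unadjusted.

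The members, the gene lists and the alternatives were chosen with earlier results of these data known. The naming rule took all members, other Oas1 genes and oligoadenylate regulators, the called genes of the other lists with the 4 largest differences, called and brightest markers, and the 5 most similar genes, skipping predicted and receptor genes. A few genes beside these (Jchain, Tnfrsf17, Stat2, Irf7, Mavs, Tlr3, Ifnar1 and Ifnar2) were added after their values were seen. List genes without a probe set of their own were not analysed here. The fit was tested on simulated data. No pairing by replicate number was seen: deviations of same-numbered arrays correlated at -0.0742, 0.0651 and -0.151. With 2 arrays per group these values cannot show that the samples were unpaired. Plots used matplotlib 3.10.9 in Python 3.11.15.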

Additional observations from a re-analysis of the deposited data

How the results depend on the processing

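The count of 4 members called higher in neutrophil co-culture against culture alone could not fall at a threshold of 0.10. With the mean of probe sets each member's difference was unchanged, as each has 1 probe set. The count was 4 in both settings. It stayed at 3 or 4 among brighter genes, with trend and robust settings, with centring on array medians and with only the 4 arrays compared. With the replicate number as a block it was 3, Oas1b being lost in limma at an adjusted p of 0.0582. It was 2 with quantile normalisation, 0 with all probe sets tested and 0 with the receptor mean in the fit, and ranged from 0 to 4 when each array was left out. The count of 1 against B cells was 2 among brighter genes, 3 with centring, 0 with quantile normalisation, 0 with all probe sets tested, 0 with only 4 arrays, 0 with the receptor mean and 1 with the replicate block, and ranged from 0 to 4 with arrays left out. It was 4 without B-cell replicate 1 and 0 without alone replicate 1, alone replicate 2, B-cell replicate 2, neutrophil replicate 1 or neutrophil replicate 2. In each of these settings limma found 3 or 4 members at an unadjusted p under 0.05. The count for B cells against alone was 0 throughout. The receptor mean differs between the groups, so that covariate takes up part of the contrast, and leaving out an array leaves 1 in its group, assumed to vary like the others. Oas3 changed sign against alone with the receptor mean (-0.25) and between -0.00341 and 0.226 with arrays left out, and against B cells with the receptor mean (-0.13). For B cells against alone, Oas3 ranged from -0.153 to 0.0823 and Oasl2 from -0.0414 to 0.0808 when arrays were left out; Oasl2 was -0.000947 with centring. The cause of these changes was not tested.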
